A study of Homo sapiens with 18 samples.

Results

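The genes described here are 8 genes of the cholesterol pathway and its main regulator: HMGCS1, IDI1, FDFT1, SQLE, EBP and SC5D, which encode enzymes of sterol synthesis, INSIG1, and SREBF2, which encodes the transcription factor SREBP2. They were followed through every probe set of the array annotated to exactly 1 of them. This gave 22 of the table's 54675 probe sets, for 7 of the 8 genes, out of 19775 genes with such a probe set. The squalene synthase gene FDFT1 had no probe set under this rule and was not analysed here. SQLE, IDI1 and EBP had 4 probe sets each, INSIG1 and SREBF2 had 3 each, and HMGCS1 and SC5D had 2 each. The brightest probe set of a gene, by its mean signal, is called its main probe set.

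The study hybridised biotin-labelled total RNA of 3 lines of hepatocellular carcinoma cells to 18 arrays. Each line, labelled Hep3B, SNU449 or PLC, gave 3 arrays after transfection of an siRNA against ATAD2 and 3 arrays after a non-targeting control siRNA, all grown in RPMI and transfected with Lipofectamine RNAiMax. ATAD2 encodes a chromatin-bound AAA ATPase with a bromodomain. The labels call the arrays biological replicates and name neither the culture behind each array nor the time after transfection, and the number of siRNA sequences used is not given in the sources used here. Values are log2 signals after quantile normalization over the 18 arrays, so a difference of 1 is a doubling of signal. Signals of different probe sets are not comparable as amounts of RNA.

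Cells make cholesterol from acetyl-CoA through mevalonate, isoprenoid diphosphates, squalene and lanosterol. SREBP2 is held in the endoplasmic reticulum by its partner SCAP and by INSIG proteins while sterols are plentiful. When sterols fall, the complex moves to the Golgi, where the site-1 and site-2 proteases release the part of SREBP2 that enters the nucleus and activates genes of sterol synthesis and uptake, INSIG1 and SREBF2 among them. Hepatocytes are a major site of both the synthesis and the disposal of cholesterol.

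SREBP2 acts through promoter elements near the start of its target genes. Promoters of HMGCS1, INSIG1 and SC5D, called after knockdown, and of SREBF2 itself are therefore printed from RefSeq in the GRCh38.p14 build. SQLE was also called but had no promoter at hand. SREBF2 was not called and was added after the motif search, as its promoter was the only one at hand with a match to the sterol element. Each covers 250 bases before to 50 bases from the start of the gene, read 5′ to 3′ along the gene's own strand. The first RefSeq promoter of HMGCS1 lies at chr5:43313363-43313662 on the minus strand, that of INSIG1 at chr7:155297628-155297927 on the plus strand, that of SC5D at chr11:121292521-121292820 on the plus strand and that of SREBF2 at chr22:41832855-41833154 on the plus strand. Capitals mark matches, on either strand, to the sterol regulatory element core TCACNCCA or its longer form TCACNCCAC, to the NF-Y box CCAAT and to the Sp1 box GGGCGG.
HMGCS1: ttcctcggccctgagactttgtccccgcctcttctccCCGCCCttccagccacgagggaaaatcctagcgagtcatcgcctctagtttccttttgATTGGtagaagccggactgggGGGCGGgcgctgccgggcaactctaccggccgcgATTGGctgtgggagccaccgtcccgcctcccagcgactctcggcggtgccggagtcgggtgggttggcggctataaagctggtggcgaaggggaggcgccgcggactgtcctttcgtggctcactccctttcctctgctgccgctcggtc
INSIG1: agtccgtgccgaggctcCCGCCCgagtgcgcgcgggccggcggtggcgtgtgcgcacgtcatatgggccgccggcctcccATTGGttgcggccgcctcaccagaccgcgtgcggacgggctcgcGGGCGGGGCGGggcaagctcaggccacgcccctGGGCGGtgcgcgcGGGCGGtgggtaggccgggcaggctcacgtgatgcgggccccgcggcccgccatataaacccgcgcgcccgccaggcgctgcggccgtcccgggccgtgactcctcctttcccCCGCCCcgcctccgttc
SC5D: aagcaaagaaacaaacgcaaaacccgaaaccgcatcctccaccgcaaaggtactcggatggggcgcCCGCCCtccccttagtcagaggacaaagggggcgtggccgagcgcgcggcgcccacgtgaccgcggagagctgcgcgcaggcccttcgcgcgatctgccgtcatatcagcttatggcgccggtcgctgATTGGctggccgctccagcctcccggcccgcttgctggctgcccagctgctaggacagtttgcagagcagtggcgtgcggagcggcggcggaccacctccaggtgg
SREBF2: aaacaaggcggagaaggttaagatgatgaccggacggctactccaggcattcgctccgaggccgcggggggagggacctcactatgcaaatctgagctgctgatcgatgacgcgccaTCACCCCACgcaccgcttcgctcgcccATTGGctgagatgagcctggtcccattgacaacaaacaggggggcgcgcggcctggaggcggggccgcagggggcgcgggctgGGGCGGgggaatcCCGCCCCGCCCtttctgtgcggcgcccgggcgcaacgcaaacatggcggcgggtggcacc

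RefSeq promoters were at hand for 6 of the 8 genes, 10 promoters in all, since HMGCS1, SC5D and IDI1 have several starts. None was at hand for SQLE or FDFT1. The core TCACNCCA was found in 1 of the 10, that of SREBF2, where the match read TCACCCCAC and began 133 bases before the start. Of all 35116 RefSeq promoters of this length, 3.95% held the core, and 1.13% held the longer form TCACNCCAC, which contains the core. An NF-Y box was found in 8 of the 10 and in 34.6% of all promoters, and an Sp1 box in 10 of the 10 and in 45% of all promoters. The windows of HMGCS1, those of SC5D and some of IDI1 overlap, so the same box can count for more than 1 of the 10. The NF-Y box of SC5D is such a case. In the printed sequences NF-Y boxes began 155 and 100 bases before the start of HMGCS1, 170 before INSIG1, 56 before SC5D and 106 before SREBF2. These are matches of letters, and sterol elements that read differently or lie outside the windows were not searched.

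Knockdown was seen in all 3 lines. ATAD2 probe set 222740_at read 5.15, 4.70 and 5.65 in the Hep3B-labelled ATAD2 siRNA arrays, against 8.94, 8.93 and 9.02 in their controls. Its change was -3.80 in Hep3B-labelled, -2.39 in SNU449-labelled and -2.62 in PLC-labelled cells (limma adjusted p = 2.73e-10, 1.35e-06 and 5.01e-07). All 4 ATAD2 probe sets were called lower in each line. Over the lines in that order, 218782_s_at changed by -3.50, -2.23 and -2.95 and 228401_at by -3.56, -2.23 and -2.23. These fell most in Hep3B-labelled cells, while 235266_at did not, at -2.33, -2.48 and -1.03. The Hep3B and SNU449 labels fit the markers poorly, and whether these labels were exchanged was not tested. Hep3B cells are known to lack RB1 and to keep hepatocyte genes, yet RB1 read 9.15 to 9.51 on the Hep3B-labelled arrays and 4.27 to 4.75 on the SNU449-labelled arrays. The median of 5 hepatocyte genes (ALB, AFP, APOA1, TTR, SERPINA1) was 4.65 to 5.12 on Hep3B-labelled arrays. It was 7.28 to 7.65 on PLC-labelled and 11.97 to 12.11 on SNU449-labelled arrays. The median of 5 mesenchymal genes (AXL, COL1A2, SPARC, ZEB1, VIM) ran the other way. In the same order of lines it was 10.75 to 10.89, 8.45 to 8.73 and 3.85 to 4.19. All 5 mesenchymal genes were highest on Hep3B-labelled arrays, but VIM and COL1A2 were higher on SNU449-labelled than on PLC-labelled arrays. The lines are therefore named by their labels throughout, and each knockdown comparison is between arrays of the same label. The median of the 3 measured leukocyte and endothelial genes (PTPRC, PECAM1, CDH5) was 2.97 to 3.71 over the 18 arrays. PECAM1 by itself read higher, at 6.07 to 6.95.

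In Hep3B-labelled cells, 7 of the 22 probe sets were higher after ATAD2 siRNA at an adjusted p under 0.05 and none was lower. They belong to 4 of the 7 measured genes: HMGCS1, SQLE, SC5D and INSIG1, which were 1.29-fold to 1.63-fold higher on their main probe sets. Among all 54613 probe sets tested, 5.08% were higher and 3.79% were lower in this comparison. The median change of the 22 probe sets was 0.25, against -0.01 over all probe sets, and 15 of the 22 had an unadjusted p under 0.05. The share of all probe sets at this unadjusted level is not given, here or for the other comparisons.

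HMGCS1, the synthase that joins acetoacetyl-CoA and acetyl-CoA at the entry of the pathway, showed the largest change of a main probe set. Its probe set 221750_at read 8.77, 8.42 and 8.81 in ATAD2 siRNA arrays, against 7.95, 7.89 and 8.03 in control arrays. Every ATAD2 siRNA array lay above every control array, and replicate 2 was the lowest of the 3. The means were 8.66 ± 0.21 and 7.96 ± 0.07 (SD, n = 3 each), a change of 0.71 ± 0.10 on the log2 scale (SE), or 1.63-fold, with a limma adjusted p of 0.000269. The second HMGCS1 probe set, 205822_s_at, read 6.25, 6.49 and 6.62 in ATAD2 siRNA arrays, against 6.24, 6.18 and 5.91 in control arrays. It moved the same way by 0.34 ± 0.13 and was not called (adjusted p = 0.129).

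IDI1, the isomerase that makes dimethylallyl diphosphate, was not called by any of its 4 probe sets. Its main probe set 208881_x_at read 11.28, 10.80 and 11.19 in ATAD2 siRNA arrays, against 10.88, 10.85 and 10.78 in control arrays. Replicates 1 and 3 were above all controls and replicate 2 lay among them. The change was 0.25 ± 0.09 (adjusted p = 0.11), and without ATAD2 siRNA replicate 2 it was 0.40 with an adjusted p of 0.000669. Over all alternatives run it ranged from 0.16 to 0.40, with an adjusted p of up to 0.383. The probe set 204615_x_at, which followed the main one with r = 0.97 over the 18 arrays, changed by 0.24, and the dimmer 242065_x_at and 233014_at by -0.08 and 0.03. Probe sets with the suffix x can share probes with other sequences, so 3 of the 4 IDI1 probe sets are uncertain in this respect.

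SQLE, the epoxidase that commits squalene to sterols and a rate-limiting enzyme of the pathway, was called by 2 of its 4 probe sets. Its main probe set 209218_at read 9.42, 9.40 and 9.52 in ATAD2 siRNA arrays, against 9.07, 9.16 and 9.01 in control arrays, with no overlap. The change was 0.37 ± 0.08, or 1.29-fold (adjusted p = 0.00755). The dim probe set 1557352_at read 4.60, 4.95 and 4.94, against 4.29, 4.22 and 4.17 in control arrays. Its change of 0.60 ± 0.15 was called (adjusted p = 0.0141), but the call was lost without Hep3B control replicate 3, ATAD2 siRNA replicate 2 or ATAD2 siRNA replicate 3 (adjusted p = 0.0583, 0.0638 and 0.0626). The probe sets 213562_s_at and 213577_at changed by 0.43 ± 0.15 and 0.15 ± 0.10 and were not called (adjusted p = 0.0869 and 0.484).

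EBP, the sterol isomerase that moves the ring double bond after demethylation, was not called. Its main probe set 213787_s_at read 9.57, 9.66 and 9.63 in ATAD2 siRNA arrays, against 9.41, 9.37 and 9.27 in control arrays. The arrays did not overlap, and the change of 0.27 ± 0.10 had an adjusted p of 0.125. The second brightest, 202735_at, changed by 0.22 ± 0.08 (adjusted p = 0.121), and the dim 213789_at and 231320_at by -0.14 and -0.02.

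SC5D, the desaturase of the step before 7-dehydrocholesterol, was called by its main probe set. Probe set 211423_s_at read 9.45, 9.12 and 9.55 in ATAD2 siRNA arrays, against 8.78, 8.81 and 8.72 in control arrays. Again all ATAD2 siRNA arrays lay above all controls and replicate 2 was the lowest of them. The means were 9.38 ± 0.23 and 8.77 ± 0.05 (SD, n = 3 each), a change of 0.61 ± 0.10, or 1.52-fold (adjusted p = 0.000458). The other SC5D probe set, 215064_at, read 3.61 to 4.48 over the 18 arrays, far below the main one, and changed by 0.21 (adjusted p = 0.402).

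INSIG1, which holds the SCAP and SREBP complex in the endoplasmic reticulum and is itself a target of SREBP2, was the only gene with every probe set called. Its main probe set 201626_at read 9.997, 9.74 and 9.999 in ATAD2 siRNA arrays, against 9.32, 9.39 and 9.47 in control arrays. The probe set 201627_s_at read 9.13, 9.01 and 9.23, against 8.56, 8.61 and 8.49 in control arrays. The probe set 201625_s_at read 7.67, 7.78 and 7.54, against 7.40, 7.25 and 7.10 in control arrays. None of the 3 overlapped between the groups, and the changes were 0.52 ± 0.09, 0.57 ± 0.10 and 0.42 ± 0.09 (adjusted p = 0.000825, 0.000884 and 0.00761). Without Hep3B control replicate 3 the last of these had an adjusted p of 0.0508.

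SREBF2 did not follow its targets. Its main probe set 201247_at read 7.31, 7.02 and 7.28 in ATAD2 siRNA arrays, against 7.28, 7.41 and 7.42 in control arrays, and the groups overlapped. The change was -0.16 ± 0.10 (adjusted p = 0.409). The probe set 242748_at read 7.34, 7.03 and 7.38, against 7.54, 7.65 and 7.52 in control arrays, and 201248_s_at read 6.24, 6.16 and 6.16, against 6.43, 6.29 and 6.37. These did not overlap between the groups, and changes of -0.32 ± 0.11 and -0.18 ± 0.06 had adjusted p of 0.0738 and 0.0678. The array measures the transcript and not the processed protein.

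**Figure D1:**
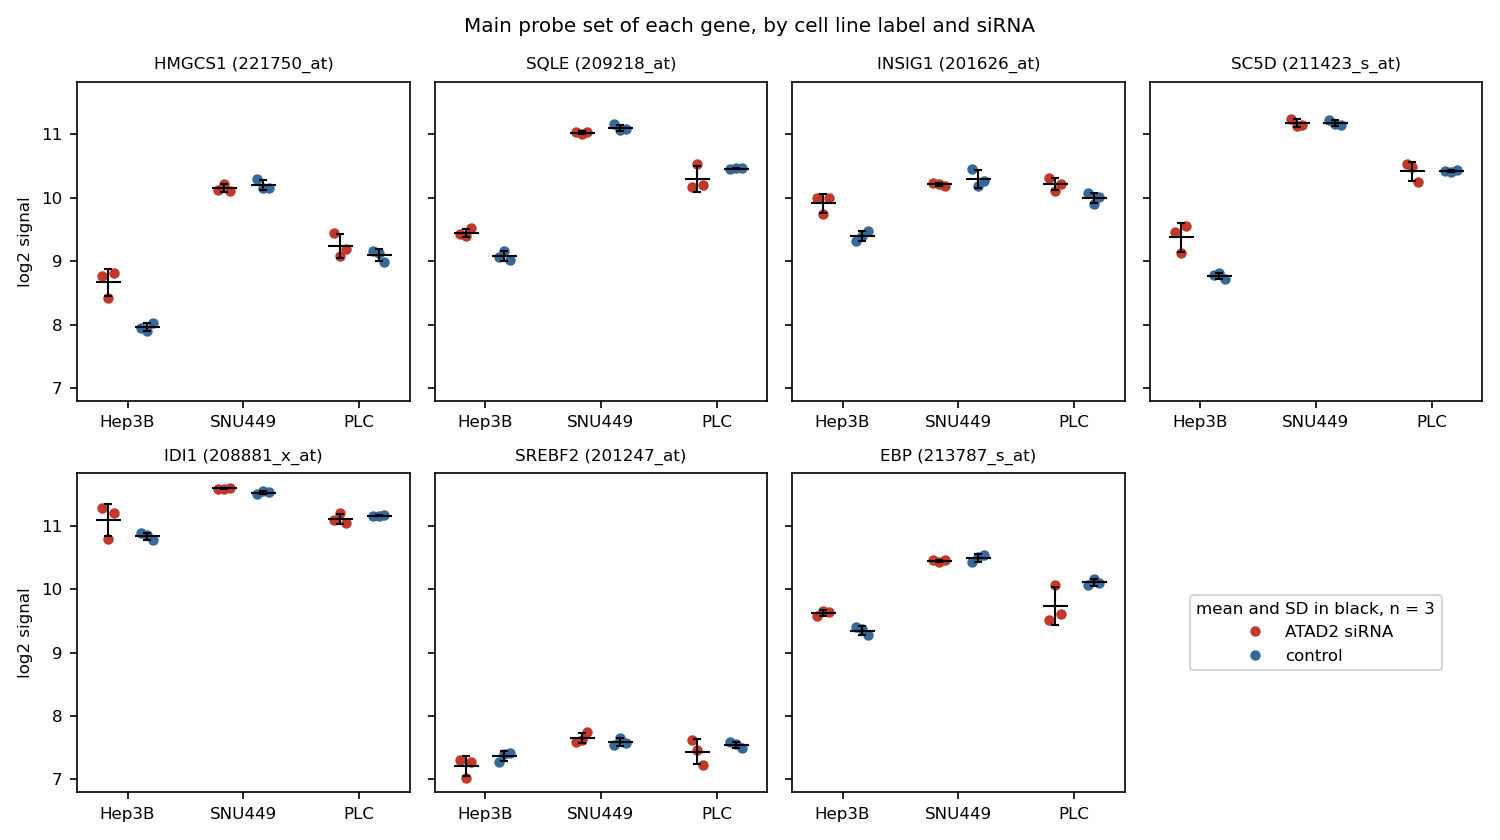
Log2 signal of the main probe set of each gene by cell line label, with ATAD2 siRNA arrays (red) left of control arrays (blue) and the mean and SD of 3 arrays in black. In Hep3B-labelled cells the ATAD2 siRNA arrays of HMGCS1, SQLE, INSIG1, SC5D and EBP lie above the controls. In SNU449-labelled cells the groups lie close together, and those of SQLE (lower) and IDI1 (higher) do not overlap either, with neither called.

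In SNU449-labelled cells none of the 22 probe sets was called, and none had an unadjusted p under 0.05. The background was low as well, with 0.0201% of all probe sets higher and 0.0238% lower in this line. HMGCS1 221750_at read 10.11, 10.22 and 10.11 in ATAD2 siRNA arrays, against 10.30, 10.15 and 10.16 in control arrays, and its change of -0.05 had a 95% confidence interval of -0.27 to 0.17. SC5D 211423_s_at read 11.25, 11.14 and 11.14, against 11.23, 11.17 and 11.14 in control arrays, and its interval was -0.21 to 0.20. For SQLE 209218_at the interval was -0.25 to 0.09 and for INSIG1 201626_at it was -0.27 to 0.10. The intervals of these 4 main probe sets exclude a change of the size measured in Hep3B-labelled cells.

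In PLC-labelled cells none of the 22 probe sets was called either, while 7 had an unadjusted p under 0.05, with no background share given. Among all probe sets 1.55% were higher and 1.78% lower. The probe sets of a gene did not move together: each of the 7 genes had probe sets on both sides of 0. INSIG1 201626_at read 10.31, 10.11 and 10.22 in ATAD2 siRNA arrays, against 10.07, 9.91 and 10.01 in control arrays, a change of 0.22 (adjusted p = 0.169). INSIG1 201627_s_at read 8.99, 9.44 and 9.04, against 9.43, 9.37 and 9.42 in control arrays, a change of -0.25 (adjusted p = 0.154). HMGCS1 changed by 0.15 on 221750_at and by -0.43 on 205822_s_at, which read 7.73, 8.29 and 7.99, against 8.37, 8.41 and 8.53 in control arrays (adjusted p = 0.0763). EBP 213787_s_at read 9.51, 10.07 and 9.61, against 10.07, 10.16 and 10.09 in control arrays, a change of -0.37 (adjusted p = 0.0553).

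In these PLC values replicate 2 lay near the controls and replicates 1 and 3 lay apart from them. The median absolute change of the 22 probe sets was 0.29, 0.06 and 0.21 in the 3 ATAD2 siRNA arrays, and replicate 2 was the closest to the controls for 16 of the 22. An RNA quality measure split the arrays the same way: the 5′ minus 3′ signal of the actin and GAPDH control probe sets was -1.16, -0.47 and -1.08 in ATAD2 siRNA arrays, against -0.57, -0.49 and -0.44 in control arrays. In Hep3B-labelled cells it was -0.69, -0.39 and -0.65, against -0.58, -0.71 and -0.65 in control arrays. With this measure as a covariate, 10 of the 22 probe sets were called in Hep3B-labelled cells and none in PLC-labelled cells. Without PLC ATAD2 siRNA replicate 2, 7 were called in PLC-labelled cells, 1 higher (EBP 213789_at) and 6 lower, among them EBP 213787_s_at at -0.54 and SQLE 213562_s_at at -0.77. Without PLC ATAD2 siRNA replicate 3, or without PLC control replicate 3, SQLE 213577_at alone was called, higher by 0.40 and 0.41. The share of all probe sets called in these altered fits is not given, so their counts have no background here. Of 5 hepatocyte genes measured in this line, ALB, AFP, APOA1 and SERPINA1 were called lower, by 1.02, 0.38, 0.72 and 0.49. The fifth, TTR, was not called (change 0.10, adjusted p = 0.649). In RNA of whole cultures, fewer cells of a kind and less RNA per cell cannot be told apart.

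**Figure D2:**
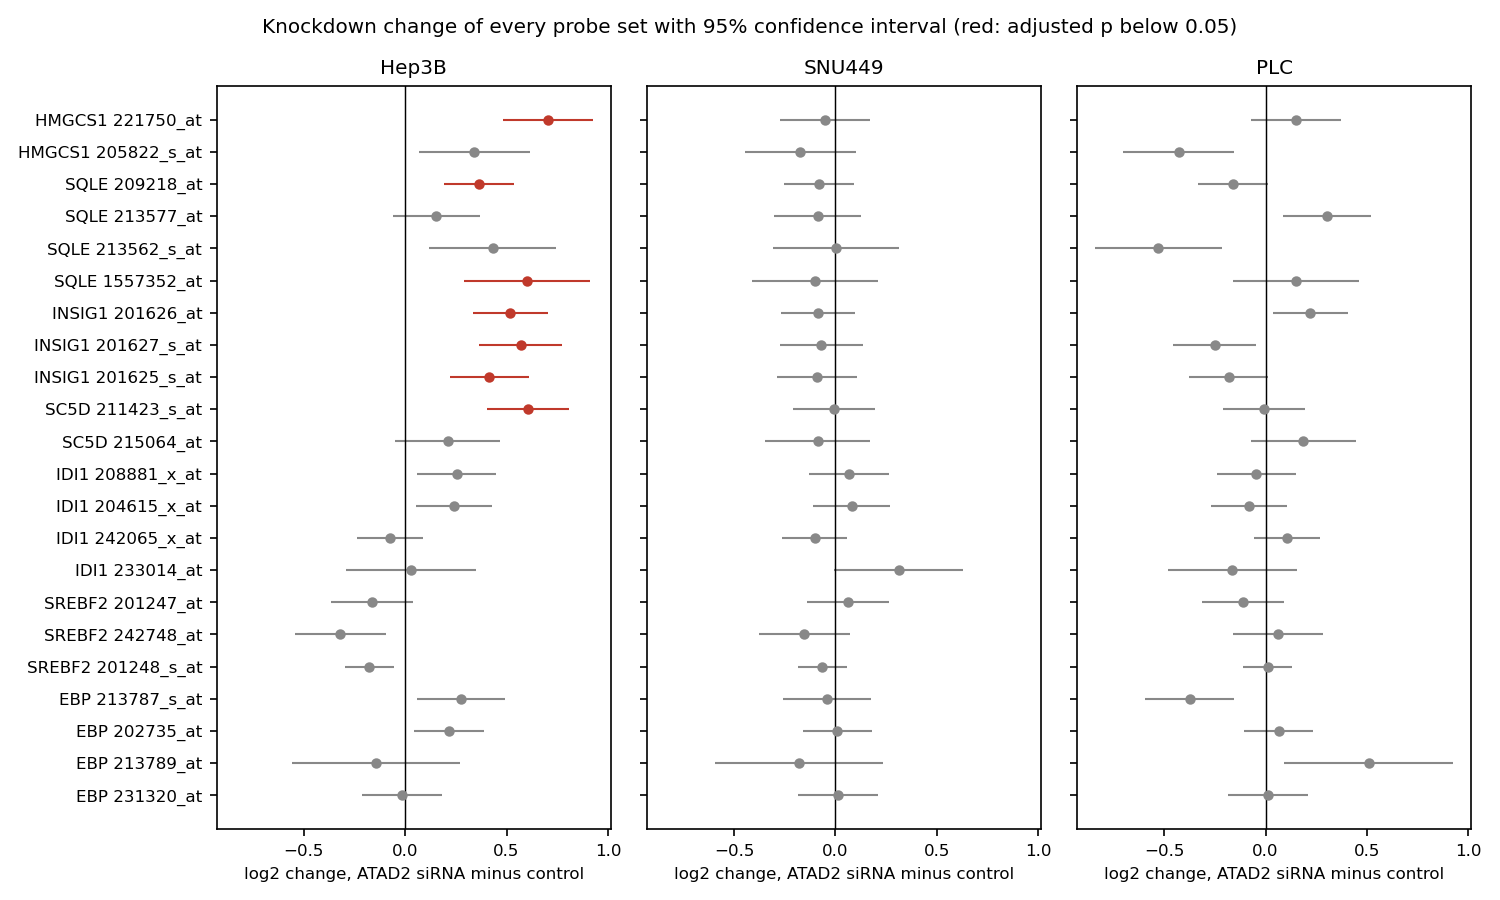
Log2 change after ATAD2 siRNA of all 22 probe sets in each line, with 95% confidence intervals and calls at an adjusted p under 0.05 in red. All 7 calls are in Hep3B-labelled cells, on HMGCS1, SQLE, INSIG1 and SC5D, and in PLC-labelled cells probe sets of the same gene lie on both sides of 0.

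**Figure D3:**
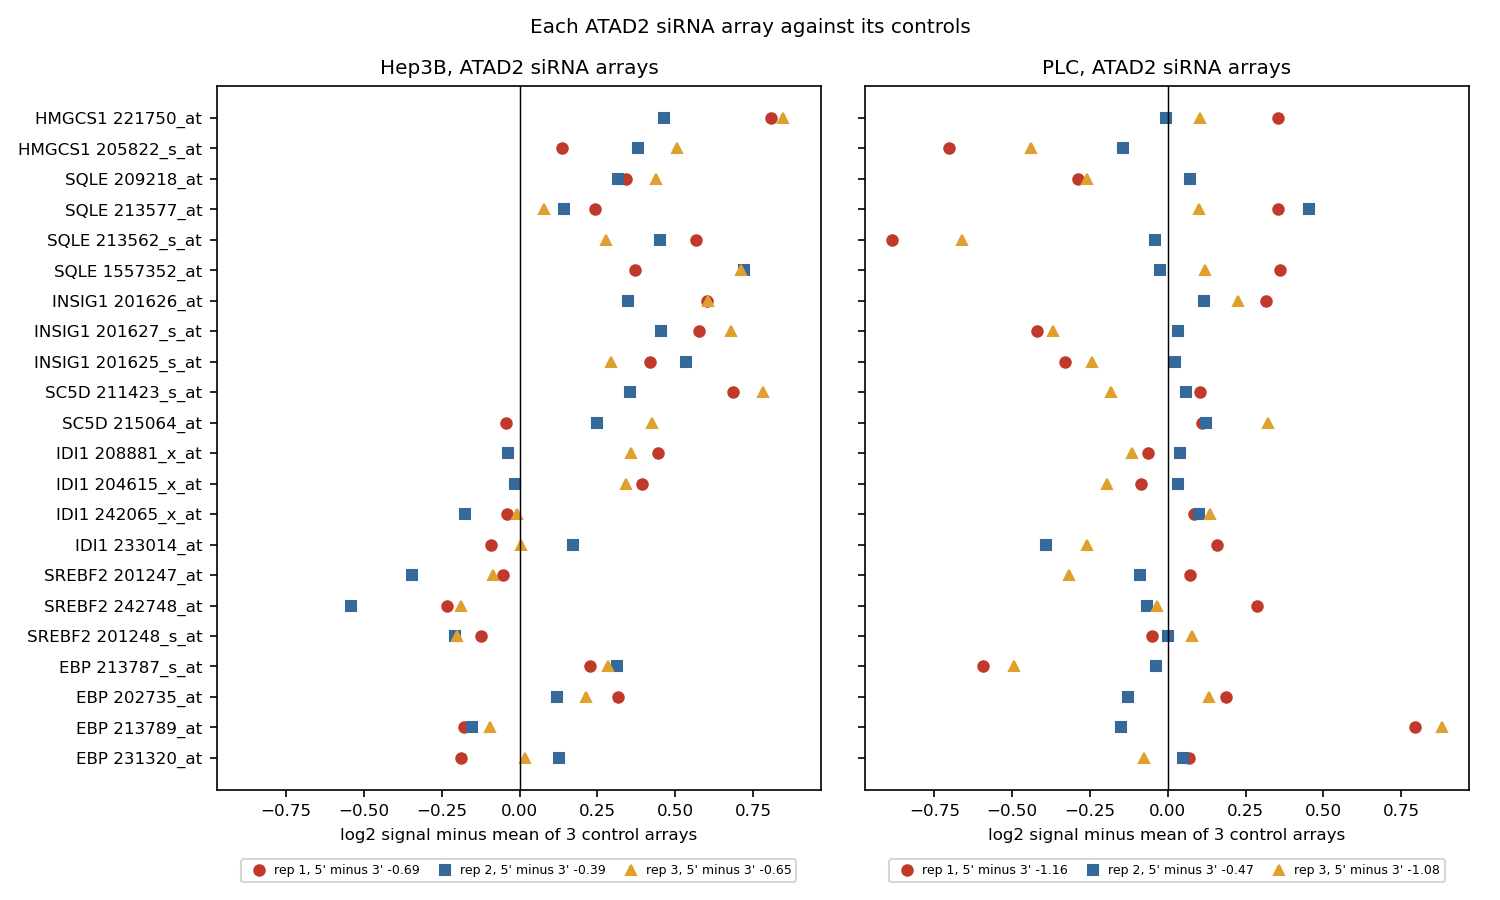
Each ATAD2 siRNA array against the mean of its 3 controls, on the log2 scale, for the 22 probe sets in Hep3B-labelled and PLC-labelled cells, with the 5′ minus 3′ signal of each array in the legend. In PLC-labelled cells replicate 2 (squares) lies near 0 for most probe sets while replicates 1 and 3 lie apart from it.

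Whether the lines responded differently was tested directly. An F test of the difference in knockdown change among the 3 lines called 9 of the 22 probe sets, against 4.67% of all probe sets. In SNU449-labelled relative to Hep3B-labelled cells, 6 of the 22 changes were lower and none was higher (background 1.25% lower, 1.44% higher). In PLC-labelled relative to Hep3B-labelled cells 8 were lower and none was higher (background 2.97% lower, 2.28% higher), and between SNU449-labelled and PLC-labelled cells none was called (background 0.0293% lower, 0.0842% higher). At an unadjusted p under 0.05 the last comparison held 6 probe sets, with no background share given. These comparisons share the arrays of each line. The measured drop of ATAD2 was also unequal between the lines, and whether it relates to these differences was not tested.

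For HMGCS1 221750_at the change in SNU449-labelled and in PLC-labelled cells was below that in Hep3B-labelled cells by 0.76 and 0.55 (adjusted p = 0.00874 and 0.039). For SC5D 211423_s_at it was below by 0.61 in each (adjusted p = 0.0201 and 0.015), and for SQLE 209218_at by 0.44 and 0.53 (adjusted p = 0.0495 and 0.0146). INSIG1 201627_s_at differed by 0.64 and 0.82 (adjusted p = 0.0163 and 0.00233), and was the only probe set whose F test stayed past the threshold in every alternative run. INSIG1 201626_at differed between SNU449-labelled and Hep3B-labelled cells by 0.60 (adjusted p = 0.0118), and not past the threshold between PLC-labelled and Hep3B-labelled cells (0.30, adjusted p = 0.179). The count of 9 rests on single arrays. It was 4, 3 and 3 without Hep3B control replicates 1, 2 and 3 in turn, 5 without Hep3B ATAD2 siRNA replicate 3, and 5 without SNU449 ATAD2 siRNA replicate 2 or 3. The F test of HMGCS1 221750_at missed the threshold without Hep3B control replicate 2 (adjusted p = 0.0512). That of SC5D 211423_s_at missed it without Hep3B control replicate 3. For SQLE 209218_at this was so without Hep3B control replicate 1 or 3 or ATAD2 siRNA replicate 3. INSIG1 201626_at missed it in 8 of 29 alternatives, among them the fits without Hep3B control replicate 1 or 2. INSIG1 201625_s_at missed it in 4 of 28, among them the fits without Hep3B control replicate 2 or 3.

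Averaged over the lines, 3 probe sets were called higher and none lower, against 3.69% and 2.93% of all probe sets. They were HMGCS1 221750_at at 0.27 ± 0.06, INSIG1 201626_at at 0.22 ± 0.05 and SC5D 211423_s_at at 0.20 ± 0.06 (adjusted p = 0.0125, 0.015 and 0.0411). The SC5D call was lost in most of the fits that left out 1 array (adjusted p up to 0.0917). In each of these 3 the Hep3B-labelled cells contributed the largest of the 3 changes, and neither other line was called by itself. In Hep3B-labelled, SNU449-labelled and PLC-labelled cells SC5D changed by 0.61, -0.005 and -0.007. In the same order HMGCS1 changed by 0.71, -0.05 and 0.15, and INSIG1 by 0.52, -0.09 and 0.22.

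Before knockdown, all 7 main probe sets were highest in SNU449-labelled and lowest in Hep3B-labelled control cells. HMGCS1 221750_at averaged 10.20 ± 0.09 in SNU449-labelled, 9.09 ± 0.10 in PLC-labelled and 7.96 ± 0.07 in Hep3B-labelled controls (SD, n = 3 each). Each of the 3 differences, of 2.24, 1.13 and 1.11, had an adjusted p of at most 6.6e-08. SC5D differed by 2.41 between SNU449-labelled and Hep3B-labelled controls, SQLE by 2.02, EBP by 1.14, INSIG1 by 0.90 and IDI1 by 0.69. The 3 SREBF2 probe sets disagreed. The main one, 201247_at, averaged 7.59 in SNU449-labelled, 7.55 in PLC-labelled and 7.37 in Hep3B-labelled controls, and none of its differences was called (adjusted p = 0.0561 for SNU449-labelled against Hep3B-labelled cells, 0.697 for SNU449-labelled against PLC-labelled cells, whose arrays overlapped). SREBF2 201248_s_at averaged 8.07 in SNU449-labelled, 7.22 in PLC-labelled and 6.36 in Hep3B-labelled controls, and its difference of 1.70 between SNU449-labelled and Hep3B-labelled controls was called (adjusted p = 6.52e-14). SREBF2 242748_at was lowest in PLC-labelled controls, at 6.95, against 7.77 in SNU449-labelled and 7.57 in Hep3B-labelled controls, an order that did not hold with arrays centred on their medians.

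With a difference of at least 1 also required, 11 of the 22 probe sets were called higher and 1 lower in SNU449-labelled than in Hep3B-labelled controls, against 8.77% and 8.37% of all probe sets. The lower one was IDI1 242065_x_at, by 1.07, which fell short of the required difference with values as deposited, with arrays centred on their medians and without SNU449 control replicate 1. In PLC-labelled relative to Hep3B-labelled controls 7 were higher and none lower (background 8.28% and 7.58%). In SNU449-labelled relative to PLC-labelled controls 3 were higher and 1 was lower (background 8.53% and 8.8%). These levels depend on the scaling, as the deposited array medians differed between the lines, at 5.55 to 5.62 in SNU449-labelled, 4.14 to 4.21 in PLC-labelled and 5.36 to 5.42 in Hep3B-labelled arrays. SNU449-labelled controls were above Hep3B-labelled controls for 7 of 7 main probe sets in each of 3 scalings. The full order held for 7 of 7 after quantile normalization, for 6 as deposited and for none after centring each array on its median.

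The rest of the pathway was read by 1 main probe set per gene. Over all 19775 genes with such a probe set, 6.91% were higher and 5.6% lower in Hep3B-labelled cells after ATAD2 siRNA, 0.0354% and 0.0405% in SNU449-labelled cells, and 1.57% and 1.57% in PLC-labelled cells. Of 14 other measured enzymes of sterol synthesis, 6 were higher and 1 was lower in Hep3B-labelled cells, with a median change of 0.18 against -0.02 over all genes. DHCR7, the last enzyme toward cholesterol, averaged 8.65 ± 0.08 in ATAD2 siRNA arrays and 8.26 ± 0.05 in control arrays (SD, n = 3 each), a change of 0.39 (adjusted p = 0.000551). GGPS1, which makes geranylgeranyl diphosphate, was higher by 0.30 and FDPS, the farnesyl diphosphate synthase, by 0.28 (adjusted p = 0.00639 and 0.00948). MSMO1, the methylsterol oxidase that acts ahead of EBP, went the other way, at 8.71 ± 0.17 in ATAD2 siRNA arrays and 9.03 ± 0.01 in control arrays (change -0.32, adjusted p = 0.0141). Its call was lost without Hep3B ATAD2 siRNA replicate 2 (adjusted p = 0.0606), and also with arrays centred on their medians (adjusted p = 0.0892). The other 3 higher enzymes were LBR, ACAT2 and ERG28. Leaving out each array in turn gave 3 to 7 higher enzymes, with the fewest without Hep3B control replicate 2, where ACAT2, FDPS and ERG28 were lost, and 0 or 1 lower.

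Among the 6 measured genes of SREBP processing, MBTPS2 and MBTPS1, the site-2 and site-1 proteases, were higher by 0.27 and 0.22 (adjusted p = 0.00381 and 0.0469). The MBTPS1 call was lost in most of the fits that left out 1 array. Of 6 measured genes of sterol uptake and transport, 4 were higher and none lower. NPC1, which exports cholesterol from lysosomes, averaged 9.85 ± 0.01 in ATAD2 siRNA arrays and 9.29 ± 0.11 in control arrays (change 0.56, adjusted p = 4.44e-05), and LIPA, the lysosomal lipase, averaged 10.86 ± 0.05 and 10.38 ± 0.06 (change 0.48, adjusted p = 3.24e-05). NPC2, the luminal partner of NPC1, and SCARB1, the receptor for high-density lipoprotein, were each higher by 0.23 (adjusted p = 0.0264 and 0.0355). The count of 4 was 2 without Hep3B control replicate 1, 2 or 3 in turn or Hep3B ATAD2 siRNA replicate 2, with the lost calls in NPC2 and SCARB1.

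Of 10 measured genes of the LXR, efflux and esterification list, 1 was higher: SOAT1, which esterifies cholesterol, by 0.33 (adjusted p = 0.0303). The call was lost without Hep3B control replicate 1 or 3 and without Hep3B ATAD2 siRNA replicate 2 or 3 (adjusted p = 0.144, 0.0506, 0.103 and 0.101). Without Hep3B ATAD2 siRNA replicate 1, PLC control replicate 1 or 3 or PLC ATAD2 siRNA replicate 1 or 2, a second gene of the list was called, lower. Of 12 lipogenic genes linked to SREBP1, 2 were higher and 1 was lower, and over the alternatives run 2 to 6 were higher. ELOVL6, a fatty acid elongase, was higher by 0.48 and ACSS2, a cytosolic acetyl-CoA synthetase, by 0.41 (adjusted p = 0.00352 and 0.00147), while ME1, the cytosolic malic enzyme, was lower, with a change of -0.37 (adjusted p = 0.00287). Without PLC ATAD2 siRNA replicate 2, which alters only the shared estimate of the spread, 4 were higher and 1 was lower. In SNU449-labelled cells no gene of these 5 lists was called. In PLC-labelled cells MBTPS2 was higher by 0.29 and NR1H3, which encodes LXR alpha, changed by -0.40 (adjusted p = 0.0121 and 0.0105), and no other gene of the lists was called. The MBTPS2 call was lost with values as deposited and with arrays centred on their medians (adjusted p = 0.0542 and 0.111), the NR1H3 call with array weights (0.052), and both with each line fitted by itself (0.5003 and 0.498). Other genes of the lists, with no probe set under the same rule, were not analysed here.

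**Figure D4:**
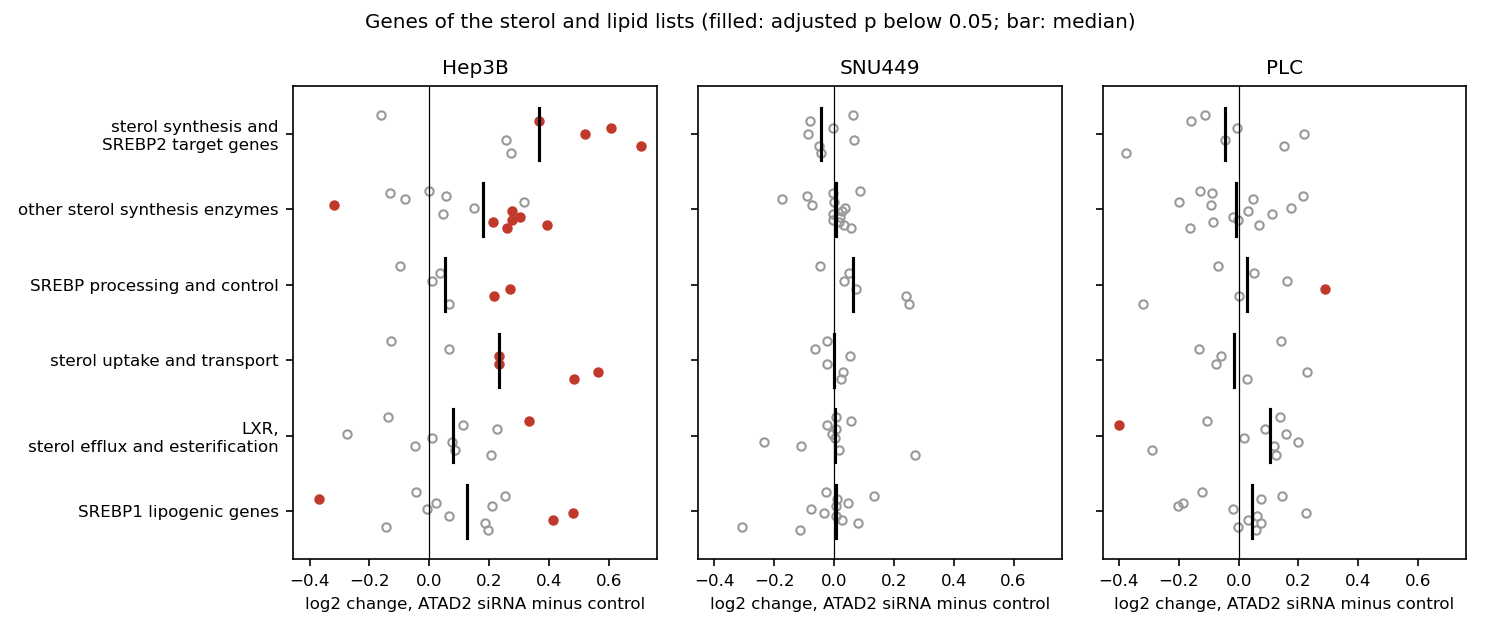
Log2 change after ATAD2 siRNA of the main probe set of each gene in 6 lists, by line, with calls at an adjusted p under 0.05 filled and the median of each list as a bar. In Hep3B-labelled cells the medians are 0.37 for the genes described here and 0.18 for the other sterol synthesis enzymes, and in SNU449-labelled cells no point is filled.

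Within the group of 7 genes, SC5D followed the other 6 most closely over the 18 arrays, with r = 0.98 between its main probe set and their mean, each array taken relative to the control mean of its line. The same r was 0.85 for SQLE, 0.83 for IDI1, 0.82 for HMGCS1, 0.70 for INSIG1, 0.52 for EBP and -0.28 for SREBF2. These values are descriptions, since the arrays share their lines and the Hep3B-labelled knockdown carries most of the spread. The genes outside the group whose main probe sets were closest to the mean of the 7 were LRIG1, CCNC, IL1RAPL1, YIF1A and PKIB (r = 0.96, 0.95, 0.94, 0.94 and 0.94). In Hep3B-labelled cells they were higher after ATAD2 siRNA by 0.77, 0.22, 1.20, 0.31 and 0.86. They were chosen by their likeness to this mean, so a rise there follows from the choice.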

How the data were processed

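The deposited table held log2 values per probe set, already normalized by the authors, between 1.33 and 14.0; the submitters' processing notes name limma, and the normalization method is not given in the sources used here. After sorting, the columns of a line agreed to within 0.16 and those of different lines to within 1.51. All 18 arrays were therefore quantile normalized together. The 62 control probe sets were left out and 54613 were tested. Genes came from the platform annotation, with symbols updated through RefSeq: 41097 probe sets had 1 gene, 1801 several and 11777 none listed, and the text names genes only from probe sets with 1 gene.

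A model of 6 group means was fitted to every probe set (limma 3.58.1 under R 4.3.3, functions lmFit and eBayes; 12 degrees of freedom remained for the residual), with Benjamini-Hochberg adjustment over all probe sets and calls at an adjusted p under 0.05. Control levels also needed an absolute difference of 1. Adjusted p-values in the text are from this fit. With 3 arrays a group an exact permutation test could not go below 0.1, its value for groups that do not overlap. The share of all probe sets without overlap is not given here. The text names every member probe set and, of the other lists, up to 4 called genes with the largest change. LBR, ACAT2 and ERG28 are named beyond this, after their values were seen. The members, lists and tests were chosen with earlier results of these data known. The number of arrays limits the precision. P-values measure the spread between arrays, which the labels call biological replicates.

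Same-numbered arrays of a line correlated at -0.10 to 0.07 in their deviations from the group means, so the numbers were not taken as pairs. The alternatives were other scalings, filters on dim probe sets, 1 probe set per gene, other models and leaving out each array. For counts of calls in these alternatives, the share of all probe sets called is not given. The fit was tested on simulated data.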

Additional observations from a re-analysis of the deposited data

Results flagged for a closer look

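For 9 of the 22 probe sets the change after ATAD2 siRNA differed between the lines by the F test. HMGCS1 was flagged by 221750_at (adjusted p = 0.0147) and 205822_s_at (0.0478), SQLE by 209218_at (0.0233) and 213562_s_at (0.0335), INSIG1 by 201627_s_at (0.00422), 201625_s_at (0.0233) and 201626_at (0.0241), SC5D by 211423_s_at (0.016) and EBP by 213787_s_at (0.0394). For 205822_s_at, 213562_s_at and 213787_s_at the values in Hep3B-labelled and PLC-labelled cells lay on opposite sides of 0, with none of them called in either line. HMGCS1 205822_s_at changed by 0.34 in Hep3B-labelled, -0.17 in SNU449-labelled and -0.43 in PLC-labelled cells. SQLE 213562_s_at changed by 0.43, 0.00 and -0.53 in the same order, and EBP 213787_s_at by 0.27, -0.04 and -0.37. With the 5′ minus 3′ signal as a covariate these 3 were no longer past the threshold, and the other 6 were. The loss was not particular to this covariate. The 3 F calls were lost in 19 of 28, 14 of 28 and 19 of 29 alternatives, mostly fits that left out 1 array. Among the other 6, only INSIG1 201627_s_at kept its call in every alternative, and INSIG1 201626_at lost it in 8 of 29.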

How the results depend on the processing

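In Hep3B-labelled cells HMGCS1 221750_at, SQLE 209218_at, INSIG1 201626_at and 201627_s_at and SC5D 211423_s_at stayed called in every alternative run. The count of 7 called probe sets became 13 without the dimmest 50% of probe sets, 4 of 7 with 1 probe set per gene, 12 with an intensity trend and robust prior, 13 with array weights and 5 to 10 when leaving out 1 array. With PLC ATAD2 siRNA replicates 1 and 3 both left out, an alternative chosen after seeing the data, it was 13. The 13 without the dimmest 50% and the 13 of this alternative each held 2 lower probe sets, SREBF2 242748_at and 201248_s_at. In PLC-labelled cells the count of 0 became 3, all lower, with values as deposited, with quantile normalization within each line, with median centring and with the intensity trend. It was 2 without the dimmest 50% and with array weights, 1 with 1 probe set per gene, 1 in the alternative chosen after seeing the data (SQLE 213577_at, higher), and 0 to 7 when leaving out 1 array. In SNU449-labelled cells it stayed 0 in 30 alternatives. The count averaged over lines ran from 2 to 4, against 3. The F test count of 9 became 5 with 1 probe set per gene, 3 with the replicate block (HMGCS1 221750_at, SQLE 213562_s_at and INSIG1 201627_s_at) and 3 to 10 when leaving out 1 array. The replicate block gave 6 called probe sets in Hep3B-labelled and 0 in PLC-labelled cells, where the MBTPS2 and NR1H3 calls were lost too (adjusted p = 0.0564 and 0.05005); that of MBTPS2 was also lost without PLC ATAD2 siRNA replicates 1 and 3 (0.0683). In Hep3B-labelled cells the alternatives gave 3 to 7 higher among the other sterol enzymes, 1 to 2 for SREBP processing, 2 to 4 for uptake and transport, and 0 to 3 for LXR and efflux. For control levels, 1 probe set per gene gave 4, 3 and 1 called of 7 for SNU449 minus Hep3B, PLC minus Hep3B and SNU449 minus PLC labels, against 12, 7 and 4 of 22. SNU449 minus PLC gave 8 with values as deposited and 10 with median centring, and PLC minus Hep3B gave 16 with median centring. PLC-labelled were above Hep3B-labelled controls for 19 of 22 probe sets after quantile normalization, 14 as deposited and 22 after median centring, and SNU449-labelled above PLC-labelled controls for 20, 21 and 3. Among differences called in at least 1 of the settings compared, values as deposited changed the sign of SQLE 1557352_at for PLC minus Hep3B (-0.000248) and IDI1 233014_at for SNU449 minus PLC (0.34). Among these, median centring turned SNU449 minus PLC to -0.38 for HMGCS1 221750_at, -1.27 and -1.29 for INSIG1 201626_at and 201627_s_at, -1.28 and -1.48 for IDI1 208881_x_at and 204615_x_at, -1.06 for SREBF2 201247_at, and -1.19 and -1.36 for EBP 213787_s_at and 202735_at. The cause was not tested, except that 1 probe set per gene leaves 7 of the 22. Signal limits SC5D 215064_at and IDI1 233014_at, whose means over the arrays were 4.02 and 4.60. The called SQLE 1557352_at was also dim in Hep3B-labelled cells, at 4.83 in ATAD2 siRNA and 4.23 in control arrays.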
